A study of Mus musculus with 9 samples.

Results

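The genes of interleukin 6 (IL-6) type signalling were followed in mouse colon in which colitis had been induced with dextran sulfate sodium (DSS). They are the ligand genes Il6, Il11, Lif and Osm, the receptor genes Osmr, Il6ra, Il6st and Il11ra1, the transcription factor gene Stat3 and its feedback inhibitor gene Socs3. They were chosen by name as the core of the pathway, with earlier results of these data known. All 10 were present among the 35315 genes measured. All mice were wild type C57BL/6J and 8 weeks old, and total RNA from colon was sequenced in 9 libraries, 3 in each of 3 groups. The GsMTx4 group drank water with 2.5% DSS over 7 days and received intravenous GsMTx4, a spider venom peptide that blocks cation channels opened by mechanical force, at 10 mg/kg on days 2, 4 and 6. The DSS group received the same DSS water and solvent injections, and the Control group drank plain water. No injection is listed for the Control mice, so in DSS against Control the part of DSS and that of the injections cannot be told apart. Whether each library is a separate mouse is not labelled, and p-values therefore measure only the spread among these samples, which may be technical.

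Cytokines of the IL-6 family signal through the shared receptor chain gp130, which is encoded by Il6st. IL-6 and IL-11 first bind receptor chains of their own, encoded by Il6ra and Il11ra1, while oncostatin M in the mouse acts mainly through a pair of gp130 and the chain encoded by Osmr. Bound gp130 activates JAK kinases, which phosphorylate STAT3. STAT3 then drives acute-phase, antimicrobial and survival genes, together with Socs3, whose product binds gp130 and JAK and shuts the signal down. In the gut, IL-6 and IL-11 are known for their part in epithelial repair and tumour growth. Oncostatin M is known for acting on stromal cells, and Socs3 for restraining epithelial regrowth after injury.

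The promoters of Il6, Il11 and Socs3 are shown for letters of elements through which such genes are known to be controlled. RefSeq promoter sequences (build GRCm38.p6) were matched for 9 of the 10 genes, in 11 windows of 250 bases before a transcription start. They were searched on both strands for a STAT element (TTCNNNGAA), an AP-1 element (TGANTCA) and an NF-kB element (GGGA and TTCC parted by any 2 bases). In all 32851 mouse windows of that length, 7.02% held the STAT letters, 6.75% the AP-1 letters and 1.21% the NF-kB letters. Among the windows searched for these genes, the STAT letters were found in that of Socs3 alone, 154 to 146 bases before its start. The AP-1 letters were in the windows of Il6, Il11 and Lif, and the NF-kB letters were in that of Il6, 44 to 35 bases before its start. The 3 windows below are shown for these matches, which are in capitals; a match is a description of the letters and not evidence of binding. The Il6 window lies on the plus strand at chr5:30012864-30013113, directly upstream of the gene. The Il11 window lies on the minus strand at chr7:4778142-4778391, before the second annotated start and within an intron of longer transcripts. The Socs3 window lies on the minus strand at chr11:117969367-117969616, inside the annotated gene, and 77 of its bases fall in annotated exons of the gene.
Il6 promoter: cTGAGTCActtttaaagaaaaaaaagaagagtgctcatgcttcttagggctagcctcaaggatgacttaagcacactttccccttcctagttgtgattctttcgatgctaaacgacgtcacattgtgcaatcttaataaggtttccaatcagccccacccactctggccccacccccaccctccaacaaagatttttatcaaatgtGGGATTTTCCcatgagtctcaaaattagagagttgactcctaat
Il11 promoter, second start: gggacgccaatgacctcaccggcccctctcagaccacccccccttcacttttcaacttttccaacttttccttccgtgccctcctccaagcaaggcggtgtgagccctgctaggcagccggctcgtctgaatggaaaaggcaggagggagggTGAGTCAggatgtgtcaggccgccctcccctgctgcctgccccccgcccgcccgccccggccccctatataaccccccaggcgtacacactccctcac
Socs3 promoter: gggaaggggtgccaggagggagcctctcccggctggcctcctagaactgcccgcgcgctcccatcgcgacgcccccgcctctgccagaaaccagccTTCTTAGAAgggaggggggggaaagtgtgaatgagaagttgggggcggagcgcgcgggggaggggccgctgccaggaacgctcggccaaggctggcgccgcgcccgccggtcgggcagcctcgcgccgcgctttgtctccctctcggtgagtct

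All 10 genes are protein coding. In the GENCODE M21 annotation of GRCm38 the ligand genes are Il6 at chr5:30013114-30019981, Il11 at chr7:4772373-4782859, Lif at chr11:4257557-4272514 and Osm at chr11:4236420-4241026. The receptor genes are Osmr at chr15:6813577-6874969, Il6ra at chr3:89864059-89913196, Il6st at chr13:112464070-112510086 and Il11ra1 at chr4:41699989-41769474. Stat3 lies at chr11:100885098-100939540 and Socs3 at chr11:117966079-117970047. Il6, Lif, Osm, Il6st and Il11ra1 are on the plus strand and the other genes on the minus strand.

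Expression was deposited as FPKM, fragments scaled by transcript length and by the number mapped in the library, so levels are per gene length, and how deeply a library was sequenced is unknown. Fold changes are differences of mean log2(FPKM + 1), given with their standard errors (SE), and understate the changes of genes with low values. Adjusted p-values come from limma with Benjamini-Hochberg adjustment over the 14360 genes that reached 1 FPKM in at least 3 libraries, with 0.05 as the threshold to pass. Of the 10 genes, 7 were tested. Of these, 6 reached 1 FPKM in all 9 libraries and Osmr did so in 8. Il6, Il11 and Osm stayed under the filter, with 1, 2 and 1 libraries at 1 FPKM or more, and are given with exact permutation tests, whose smallest possible two-sided p with 3 against 3 libraries is 0.1.

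Across all tested genes, 956 were higher and 807 lower in GsMTx4 than in DSS, 921 were higher and 1541 lower in DSS than in Control, and 27 were higher and 7 lower in GsMTx4 than in Control. The split of calls in DSS against Control depended on scaling, with 1342 higher and 949 lower after median-of-ratios scaling and 1335 higher and 1328 lower after quantile normalization. In GsMTx4 against DSS, median-of-ratios scaling gave 852 higher and 994 lower. For DSS against Control these scalings moved the median of all genes by 0.14 and 0.11, and rescaling each library to a common sum moved it by -0.11 on the log2 scale. In GsMTx4 against Control, quantile normalization gave 26 higher and 3 lower, and the common sum moved the median by -0.11. The first principal component, with 43.3% of the variance, placed GsMTx4 libraries at -23.3 to -2.50, DSS libraries at 38.2 to 51.8 and Control libraries at -29.9 to -28.6. All 12 colon epithelial markers were tested, and their summed level was 5920 to 7330 FPKM in GsMTx4, 6297 to 8840 FPKM in DSS and 5983 to 7292 FPKM in Control. Of these, Car1 alone passed in DSS against Control, as higher, where 6.41% of all tested genes did. In GsMTx4 against DSS, Slc26a3 passed as higher and Car1 and Krt20 as lower, where 6.66% and 5.62% of all tested genes did. None passed in GsMTx4 against Control. The library DSS 3 stood apart by its neutrophil markers.

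In DSS colon, 6 of the 10 genes were higher in every library than in any Control library: Il6, Il11, Osm, Osmr, Stat3 and Socs3. None was lower in every library. Among all 33133 genes with a value above 0, 8.82% were higher and 18.4% lower in this way. These include genes under the filter. Among the 14360 tested genes, 1941 were higher and 4818 lower in this way, beside 3 and 0 of the 7 tested here. Of the 7 tested genes, 2 passed as higher in DSS than in Control, Socs3 and Osmr, and 0 passed as lower, where 6.41% of all tested genes passed as higher and 10.7% as lower. With GsMTx4, Il6, Il11 and Il6ra were lower in every library than in any DSS library, where 8.90% of genes were, and Lif was higher in every library, where 9.77% of genes were. Among the 14360 tested genes, 1841 were lower and 2508 higher in this way, beside 1 and 1 of the 7. Il6ra was the 1 tested gene that passed, as lower in GsMTx4 than in DSS. Among all tested genes 5.62% passed as lower and 6.66% as higher. None of the 7 passed in GsMTx4 against Control by limma, a comparison in which 0.188% of all tested genes passed as higher and 0.0487% as lower. Without overlap, Socs3 was higher and Il6ra lower in GsMTx4 than in Control, where 3.80% of genes were higher and 9.43% lower. Among the 14360 tested genes, 718 were higher and 2099 lower without overlap in GsMTx4 against Control. At an unadjusted p under 0.05 that comparison held 1 of the 7, Socs3, and 10.1% of all tested genes. The comparisons share libraries, so their fold changes are not independent of each other.

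**Figure D1:**
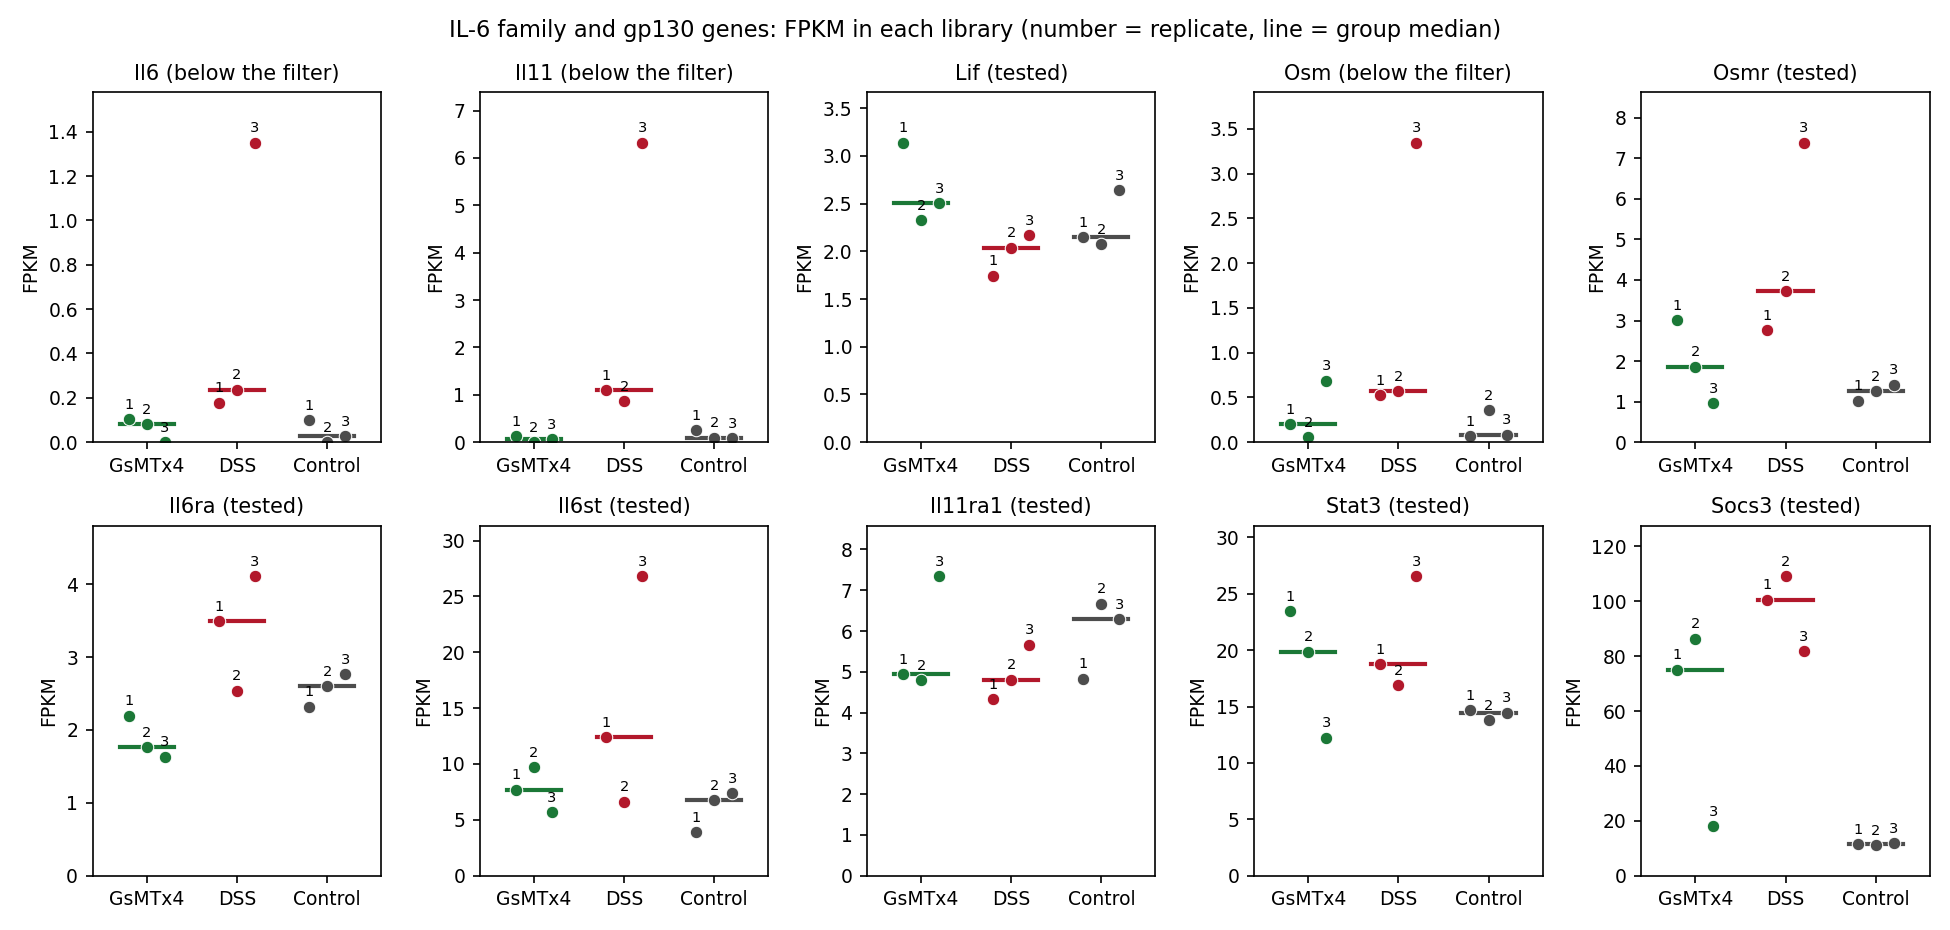
FPKM of the 10 genes in each library, with GsMTx4 to the left, DSS in the middle and Control to the right in each panel; points carry the replicate number, horizontal lines are group medians, and each panel has its own axis from 0. The 3 low ligand genes are highest in DSS 3, Lif lies between 1.74 and 3.14 FPKM throughout, and Socs3 is high in all DSS libraries and in GsMTx4 1 and 2 but at 18.0 FPKM in GsMTx4 3.

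Among the ligands, Il11, Osm and Il6 stayed under 1 FPKM outside the DSS group, and within it they were highest in the library DSS 3. Il11 encodes interleukin 11, a cytokine made largely by stromal cells that acts on epithelium and fibroblasts. Il11 was at 0.126 and 0.0634 FPKM in GsMTx4 1 and 3 and listed at 0 in GsMTx4 2, at 1.09, 0.866 and 6.32 FPKM in DSS 1 to 3, and at 0.256, 0.0916 and 0.0838 FPKM in Control 1 to 3. Every DSS library was above every GsMTx4 and every Control library, and GsMTx4 and Control overlapped. The difference of mean log2(FPKM + 1) was -1.53 for GsMTx4 minus DSS and 1.42 for DSS minus Control, each with an exact permutation p of 0.1, the smallest possible. Without DSS 3 these differences were -0.90 and 0.79. For GsMTx4 minus Control the difference was -0.10 (exact permutation p = 0.4). In the limma fit with no filter on low values the adjusted p of Il11 was 0.130 in both comparisons.

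Osm encodes oncostatin M, which is made by myeloid and T cells and acts on stroma, and lies next to Lif on chromosome 11. Osm was at 0.203, 0.0577 and 0.686 FPKM in GsMTx4 1 to 3, at 0.525, 0.567 and 3.34 FPKM in DSS 1 to 3, and at 0.0654, 0.354 and 0.0830 FPKM in Control 1 to 3. All DSS libraries were above all Control libraries, but GsMTx4 3 was above DSS 1 and DSS 2. The difference in mean log2(FPKM + 1) was -0.76 for GsMTx4 minus DSS, with an exact permutation p of 0.3, and 0.91 for DSS minus Control, with an exact permutation p of 0.1. Without DSS 3 the differences were -0.26 and 0.41. For GsMTx4 minus Control the difference was 0.15 (exact permutation p = 0.7). The adjusted p of Osm in the limma fit with no filter was 0.375 for GsMTx4 against DSS and 0.245 for DSS against Control.

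Il6, the founding ligand of the family, was the lowest of the 4 per length in the DSS group. Il6 was at 0.104 and 0.0810 FPKM in GsMTx4 1 and 2 and listed at 0 in GsMTx4 3, at 0.179, 0.236 and 1.35 FPKM in DSS 1 to 3, and at 0.0986 and 0.0269 FPKM in Control 1 and 3 and listed at 0 in Control 2. The DSS libraries did not overlap with either of the other groups, and the GsMTx4 and Control libraries overlapped. The difference in mean log2(FPKM + 1) was -0.51 for GsMTx4 minus DSS and 0.53 for DSS minus Control, each with an exact permutation p of 0.1. Without DSS 3 the differences were -0.19 and 0.21. The adjusted p of Il6 in the limma fit with no filter was 0.309 for GsMTx4 against DSS and 0.249 for DSS against Control. For GsMTx4 minus Control the difference was 0.03 (exact permutation p = 0.8).

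Lif encodes leukemia inhibitory factor, which signals through gp130 paired with the receptor chain encoded by Lifr. Lif was at 3.14, 2.33 and 2.51 FPKM in GsMTx4 1 to 3, at 1.74, 2.04 and 2.17 FPKM in DSS 1 to 3, and at 2.15, 2.08 and 2.64 FPKM in Control 1 to 3. Every GsMTx4 library was above every DSS library, while Control overlapped both. The log2 fold change was 0.29 ± 0.14 (SE) in GsMTx4 against DSS, -0.14 ± 0.14 in DSS against Control and 0.15 ± 0.14 in GsMTx4 against Control. None passed (limma adjusted p = 0.204, 0.502 and 0.754).

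The mix of ligand transcripts therefore differed between libraries mainly through the 3 low genes. The 4 ligand genes summed to 3.57, 2.47 and 3.25 FPKM in GsMTx4 1 to 3, to 3.54, 3.71 and 13.2 FPKM in DSS 1 to 3, and to 2.57, 2.52 and 2.83 FPKM in Control 1 to 3. Lif made up 77.0% to 94.4% of that sum in GsMTx4 libraries and 82.3% to 93.2% in Control libraries. In DSS it made up 49.3%, 55.0% and 16.5% of the sum in libraries 1 to 3. Il11 made up 30.9%, 23.4% and 47.9% of the sum in DSS 1 to 3, against at most 3.52% in a GsMTx4 library and at most 9.95% in a Control library. Among these 4 genes, Il11 was the most abundant per length in DSS 3, and Lif was in each of the other 8 libraries. Of the other family ligand genes given further on, Clcf1 was above Lif in DSS 1 and DSS 3, and Ebi3 in every DSS library.

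**Figure D2:**
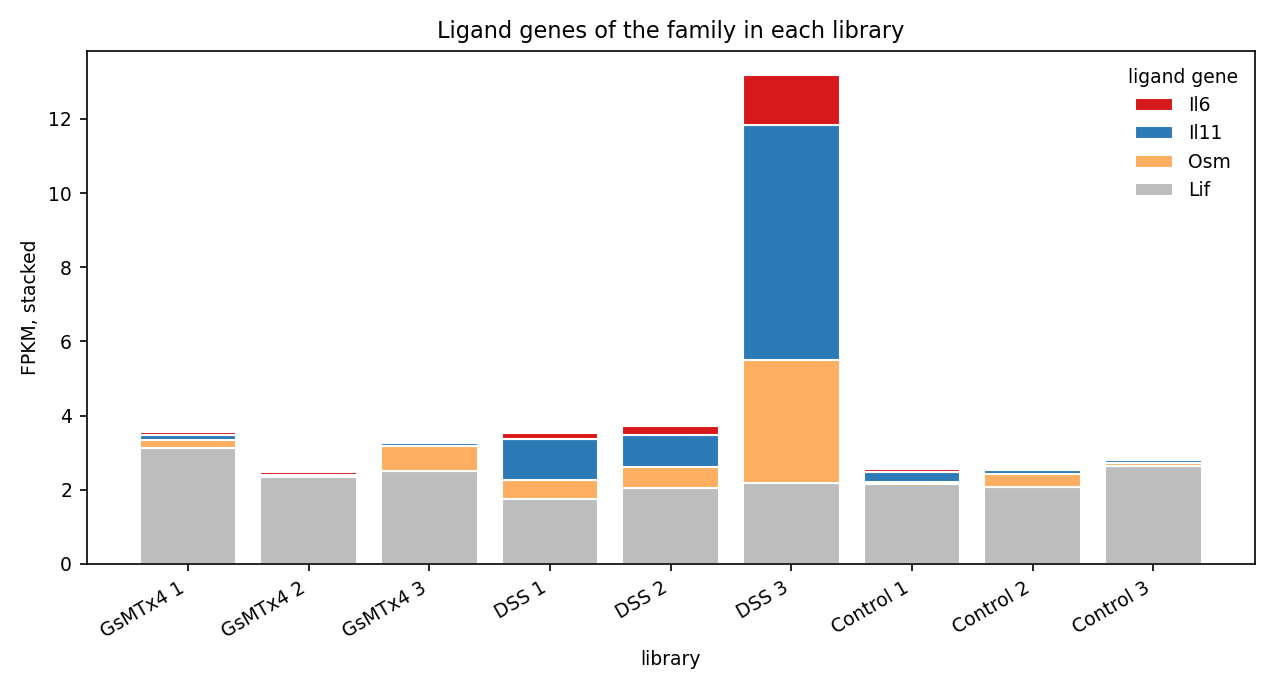
Stacked FPKM of Lif, Osm, Il11 and Il6 (y axis) in the 9 libraries (x axis), GsMTx4 first, then DSS, then Control. Lif fills most of each GsMTx4 and Control bar, and the bar of DSS 3 reaches 13.2 FPKM, of which 47.9% is Il11.

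The summed markers of neutrophils and of monocytes and macrophages were higher in every DSS library than in any other library. The neutrophil marker list summed to 7.28 to 47.2 FPKM in GsMTx4, 67.0 to 326 FPKM in DSS and 2.33 to 3.67 FPKM in Control, and DSS 3 held the highest sum. Of its 10 genes 6 were tested, of which 4 were lower in GsMTx4 than in DSS and 5 were higher in DSS than in Control. Both counts hold Il1r2, which reached 1 FPKM in DSS libraries alone and so entered the test through the group where it was high. Among all tested genes, 5.62% passed as lower in GsMTx4 than in DSS and 6.41% as higher in DSS than in Control. Monocyte and macrophage markers summed to 588 to 741 FPKM in GsMTx4, 934 to 1215 FPKM in DSS and 540 to 623 FPKM in Control, with 2 of 11 lower in GsMTx4 than in DSS and 4 of 11 higher in DSS than in Control. Fibroblast markers summed to 119 to 147 FPKM in GsMTx4, 145 to 309 FPKM in DSS and 138 to 157 FPKM in Control, again highest in DSS 3. Of the 9 fibroblast markers tested, 3 were lower in GsMTx4 than in DSS, and 1, Pdpn, was higher in DSS than in Control. No gene of these 3 lists was at 0 in every library. T cell markers summed to 30.9 to 42.0 FPKM in GsMTx4, 35.5 to 70.0 FPKM in DSS and 38.1 to 52.4 FPKM in Control. Smooth muscle markers summed to 524 to 691 FPKM in GsMTx4, 198 to 804 FPKM in DSS and 414 to 669 FPKM in Control. Of the 8 T cell and 6 smooth muscle markers, 0 passed in any comparison. In bulk tissue, fewer cells of a type and less RNA per cell cannot be told apart, and the part of these cells in the ligand levels was not tested.

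Among the receptors, Osmr rose in DSS colon and Il6ra was lower with GsMTx4, while Il6st and Il11ra1 did not pass in any comparison. Osmr, the oncostatin M receptor chain, was at 3.01, 1.86 and 0.958 FPKM in GsMTx4 1 to 3, at 2.76, 3.73 and 7.38 FPKM in DSS 1 to 3, and at 1.02, 1.25 and 1.42 FPKM in Control 1 to 3. All DSS libraries were above all Control libraries, and GsMTx4 overlapped both groups, with GsMTx4 1 above DSS 1 and GsMTx4 3 below every Control library. Osmr averaged 4.62 ± 2.44 FPKM in DSS and 1.23 ± 0.199 FPKM in Control (SD, n = 3 each), a log2 fold change of 1.25 ± 0.32 (SE; limma adjusted p = 0.0305). That call was lost when 1 library was left out: the adjusted p was 0.0585 without DSS 2, 0.0689 without DSS 3, and 0.0912, 0.0878 and 0.0737 without Control 1, 2 and 3. The Osmr fold change stayed positive in each of these fits, at 0.92 without DSS 3 and between 1.18 and 1.34 in the others. In GsMTx4 against DSS it was -0.91 ± 0.32 (SE) with a 95% confidence interval of -1.64 to -0.18, which did not pass (limma adjusted p = 0.0970), and without DSS 3 it was -0.58 (adjusted p = 0.236). In GsMTx4 against Control it was 0.34 ± 0.32 (SE; limma adjusted p = 0.756).

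Il6ra encodes the chain that binds IL-6 and is expressed mainly by hepatocytes and some leukocytes. Il6ra was at 2.20, 1.76 and 1.63 FPKM in GsMTx4 1 to 3, at 3.49, 2.54 and 4.11 FPKM in DSS 1 to 3, and at 2.32, 2.60 and 2.76 FPKM in Control 1 to 3. The GsMTx4 libraries lay below all DSS and all Control libraries, and DSS 2 lay within the Control range. Il6ra averaged 1.86 ± 0.295 FPKM in GsMTx4 and 3.38 ± 0.790 FPKM in DSS (SD, n = 3 each), a log2 fold change of -0.60 ± 0.16 (SE; limma adjusted p = 0.0434). The call was lost without GsMTx4 2 (limma adjusted p = 0.125), GsMTx4 3 (0.0929), DSS 1 (0.101), DSS 3 (0.113) or Control 1, 2 or 3 (0.0663, 0.0782 and 0.0725), with fold changes of -0.75 to -0.48 over all 9 such fits. It also ended with rescaling to a common sum (adjusted p = 0.0860) and when only GsMTx4 and DSS were fitted (0.123). The Il6ra fold change was 0.28 ± 0.16 (SE) in DSS against Control (limma adjusted p = 0.240). In that comparison it passed after quantile normalization, at 0.42 with an adjusted p of 0.0460. In GsMTx4 against Control it was -0.32 ± 0.16 (SE; limma adjusted p = 0.553). The summed monocyte and macrophage markers above were also lower with GsMTx4, and the hepatocyte markers given further on were higher; their part in the Il6ra level was not tested.

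Il6st, the gene for gp130 itself, was the most abundant receptor gene per length in 7 of the 9 libraries. Il6st was at 7.70, 9.73 and 5.66 FPKM in GsMTx4 1 to 3, at 12.4, 6.63 and 26.8 FPKM in DSS 1 to 3, and at 3.88, 6.78 and 7.39 FPKM in Control 1 to 3. The 3 groups overlapped, because DSS 2 lay at the Control level while DSS 3 was the highest library. The log2 fold change was -0.73 ± 0.42 (SE) in GsMTx4 against DSS (limma adjusted p = 0.281), 1.05 ± 0.42 in DSS against Control (0.114) and 0.32 ± 0.42 in GsMTx4 against Control (0.828). Without DSS 2, Il6st passed in DSS against Control, with a fold change of 1.50 and an adjusted p of 0.0363, and without DSS 3 its fold change was 0.57 (adjusted p = 0.262). In GsMTx4 against DSS its fold change was -0.25 without DSS 3 (adjusted p = 0.670).

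Il11ra1 encodes the chain that binds IL-11. Il11ra1 was at 4.94, 4.79 and 7.34 FPKM in GsMTx4 1 to 3, at 4.32, 4.80 and 5.67 FPKM in DSS 1 to 3, and at 4.83, 6.67 and 6.29 FPKM in Control 1 to 3. The 3 groups overlapped, and the log2 fold changes were 0.16 in GsMTx4 against DSS, -0.22 in DSS against Control and -0.06 in GsMTx4 against Control, each with an SE of 0.18 (limma adjusted p = 0.594, 0.407 and 0.936). The mouse genome holds a near-identical copy, Il11ra2, which was at no more than 0.335 FPKM in any library, and how reads were shared between the copies is not given, so the Il11ra1 level is uncertain.

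By mean FPKM, which is per length, the order in the GsMTx4 group was Il6st, Il11ra1, Osmr and Il6ra, with Il6st and Il11ra1 overlapping, and Osmr and Il6ra overlapping. In the DSS group the order was the same; every DSS library had more Il6st than any had Il11ra1, and Il11ra1 overlapped with Osmr and Osmr with Il6ra. In Control it was Il6st, Il11ra1, Il6ra and Osmr, where Il6st and Il11ra1 overlapped and every library had more Il6ra than any had Osmr. The mean level of Osmr thus stood above that of Il6ra in the GsMTx4 and DSS groups and below it in Control; this difference in order was not tested. Per length, Il6st exceeded Il6ra by 3.50, 5.53 and 3.46 times in GsMTx4 1 to 3, by 3.55, 2.61 and 6.52 times in DSS 1 to 3, and by 1.67, 2.61 and 2.67 times in Control 1 to 3.

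Downstream of the receptors, Socs3 passed in DSS against Control, while Stat3 did not pass. Stat3, which encodes the main transcription factor of the pathway, was at 23.4, 19.8 and 12.2 FPKM in GsMTx4 1 to 3, at 18.8, 16.9 and 26.5 FPKM in DSS 1 to 3, and at 14.7, 13.8 and 14.4 FPKM in Control 1 to 3. Every DSS library was above every Control library, and the GsMTx4 libraries spanned both, with GsMTx4 3 the lowest of all 9. The log2 fold change was -0.18 ± 0.24 (SE) in GsMTx4 against DSS, 0.48 ± 0.24 in DSS against Control and 0.31 ± 0.24 in GsMTx4 against Control (limma adjusted p = 0.657, 0.180 and 0.705). The first of these changed sign without GsMTx4 3 (0.08) and without DSS 3 (0.01).

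Socs3, the STAT3-induced inhibitor of gp130 signalling, was at 75.1, 86.3 and 18.0 FPKM in GsMTx4 1 to 3, at 101, 109 and 81.8 FPKM in DSS 1 to 3, and at 11.5, 11.1 and 11.8 FPKM in Control 1 to 3. GsMTx4 1 and 2 lay close to the DSS range, with GsMTx4 2 inside it, while GsMTx4 3 lay nearer to Control; all GsMTx4 and all DSS libraries were above all Control libraries. Socs3 averaged 97.2 ± 14.0 FPKM in DSS and 11.5 ± 0.343 FPKM in Control (SD, n = 3 each), a log2 fold change of 2.97 ± 0.48 (SE; limma adjusted p = 0.00531). It passed with any 1 library left out, at adjusted p-values of 0.000125 to 0.0245. In GsMTx4, where Socs3 averaged 59.8 ± 36.6 FPKM (SD, n = 3), the log2 fold change against DSS was -0.96 ± 0.48 (SE) with a 95% confidence interval of -2.05 to 0.13 (limma adjusted p = 0.217). Without GsMTx4 3 it was -0.26 (adjusted p = 0.281). Against Control it was 2.01 ± 0.48 (SE; limma adjusted p = 0.238). Without GsMTx4 3 the Socs3 fold change in GsMTx4 against Control was 2.71 and passed, with an adjusted p of 0.000817. Per length, Socs3 exceeded Stat3 by 3.21, 4.35 and 1.47 times in GsMTx4 1 to 3 and by 5.36, 6.47 and 3.08 times in DSS 1 to 3. In Control the ratio was 0.783, 0.806 and 0.817.

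Over the 7 tested genes the median log2 fold change was -0.60 in GsMTx4 against DSS, 0.48 in DSS against Control and 0.31 in GsMTx4 against Control. The medians over all tested genes were 0.07, -0.17 and -0.08.

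**Figure D3:**
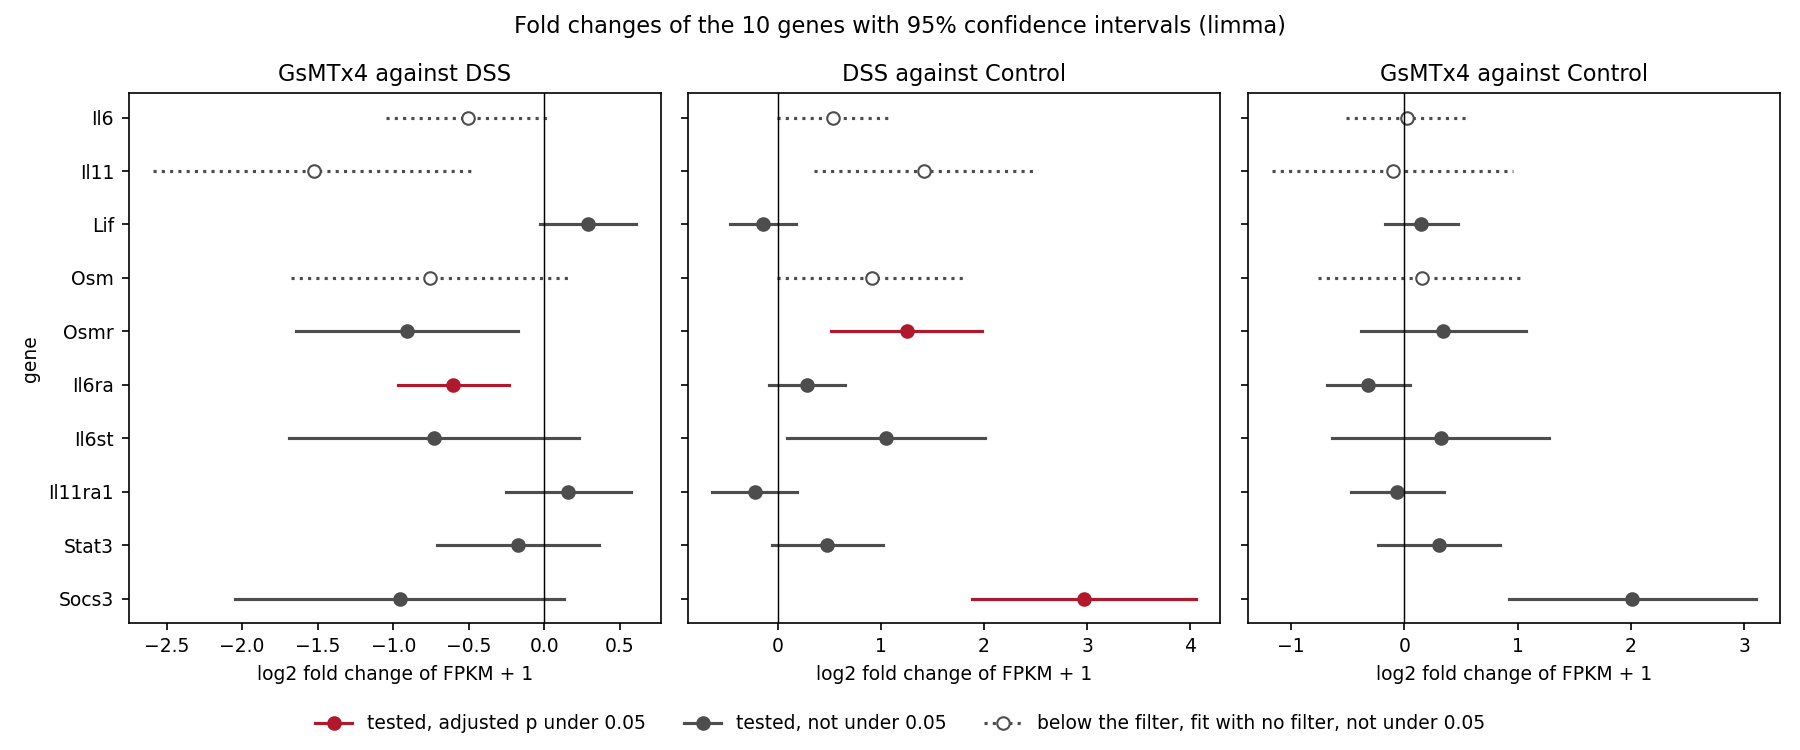
log2 fold change of FPKM + 1 (x axis) with 95% confidence intervals for each of the 10 genes (y axis) in GsMTx4 against DSS, DSS against Control and GsMTx4 against Control; filled points are tested genes, open points with dotted lines are the 3 genes under the filter, from a fit with no filter, and red marks an adjusted p under 0.05. Red points are Il6ra at -0.60 in GsMTx4 against DSS, and Socs3 at 2.97 and Osmr at 1.25 in DSS against Control.

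Genes with the course most like a member were ranked by the mean absolute difference in log2(FPKM + 1), centred on the Control mean, over the 9 libraries. The order is a description of these libraries, and a likeness to the member in single libraries follows from the ranking itself. For Osmr they were Scgb3a1 (0.10), the complement gene C7 (0.13), the TNF receptor gene Tnfrsf1b (0.14), Tgfbr3 (0.18), a co-receptor for TGF-beta, and Clec7a (0.18), which encodes a fungal glucan receptor of myeloid cells. C7 was at 0.898, 0.488 and 0.286 FPKM in GsMTx4 1 to 3, at 1.26, 1.99 and 3.26 FPKM in DSS 1 to 3 and at 0.181, 0.370 and 0.349 FPKM in Control 1 to 3. Like Osmr, C7 was highest in DSS 3, and GsMTx4 3 was the lowest of its group. For Stat3 they were Tbc1d2b (0.06), Kazn (0.09), Lrrfip1 (0.10), Rhbdf2 (0.10) and Akap12 (0.10). Rhbdf2 encodes iRhom2, which brings the sheddase ADAM17 to the cell surface. For Socs3 the differences were larger: Slc5a9 (0.32), Trim15 (0.32), Tat (0.35), Dmbt1 (0.40) and Lbp (0.43). Dmbt1, which encodes a secreted mucosal scavenger receptor, was at 1371, 529 and 173 FPKM in GsMTx4 1 to 3, at 1256, 736 and 633 FPKM in DSS 1 to 3 and at 142, 142 and 157 FPKM in Control 1 to 3. As with Socs3, GsMTx4 3 lay nearest to Control.

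Few other genes of the pathway's machinery passed. Of 9 other gp130 family ligands 3 were tested, and none passed in any comparison, nor did either of the 2 tested among 5 other receptor genes. With 1 library left out, 1 ligand gene passed as lower in GsMTx4 than in DSS without DSS 2 and 1 as higher in DSS than in Control without GsMTx4 3, and 1 receptor gene passed as higher in DSS than in Control without DSS 2 or without Control 2. Clcf1, a ligand of the ciliary neurotrophic factor receptor, was at 0.0956, 0.916 and 0.866 FPKM in GsMTx4 1 to 3, at 4.42, 1.10 and 2.50 FPKM in DSS 1 to 3 and at 1.31, 1.04 and 1.23 FPKM in Control 1 to 3. GsMTx4 was below DSS in every library, with a log2 fold change of -1.12 ± 0.34 (SE; limma adjusted p = 0.0613). Ebi3, a subunit of IL-27, had a log2 fold change of -0.49 ± 0.18 (SE) in GsMTx4 against DSS (adjusted p = 0.0999) and 0.54 ± 0.18 in DSS against Control (adjusted p = 0.0666). The receptor gene Lifr had a log2 fold change of 0.63 ± 0.20 (SE) in DSS against Control (adjusted p = 0.0607). None of 4 genes of receptor shedding, Adam10, Adam17, Rhbdf1 and Rhbdf2, passed, with a median of -0.06 in GsMTx4 against DSS and -0.02 in DSS against Control.

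Of 10 genes for JAK kinases, STAT factors and adaptors, 2 rose and 1 fell in DSS against Control, and none passed in GsMTx4 against DSS. Over all tested genes, 6.41% passed as higher and 10.7% as lower in DSS against Control. In GsMTx4 against DSS these shares were 6.66% and 5.62%. Jak2, a kinase bound to gp130, was at 27.8, 26.4 and 24.7 FPKM in DSS 1 to 3 and at 19.1, 19.6 and 19.0 FPKM in Control 1 to 3, without overlap (log2 fold change 0.43 ± 0.11 SE, limma adjusted p = 0.0324). The adaptor gene Grb2 rose by 0.50 ± 0.12 (SE, adjusted p = 0.0205), and the docking protein gene Gab1 was lower, at -0.67 ± 0.16 (SE, adjusted p = 0.0210). These calls were sensitive to single libraries. The count of rises became 0 without DSS 1 or without Control 1, 2 or 3, and 1 without DSS 2. Gab1 no longer passed without DSS 1, DSS 2 or any 1 Control library (adjusted p = 0.0511 to 0.0827), and without GsMTx4 2 or GsMTx4 3 the count of falls was 2. Jak2 also lost its call with rescaling to a common sum (adjusted p = 0.151), as did Grb2 (0.0880). Jak1, the main kinase of gp130, had a fold change of 0.35 ± 0.15 (SE) in DSS against Control (adjusted p = 0.132).

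Of 8 further inhibitors of JAK and STAT signalling, 2 rose in DSS, the phosphatase genes Ptpn1 and Ptpn6, and Ptpn6 was lower with GsMTx4. Over all tested genes, 6.41% passed as higher in DSS against Control and 5.62% as lower in GsMTx4 against DSS. Ptpn6 encodes SHP-1, a phosphatase mainly of blood cells, and was at 18.1, 13.3 and 17.3 FPKM in GsMTx4 1 to 3, at 31.8, 21.1 and 25.5 FPKM in DSS 1 to 3 and at 17.1, 15.7 and 15.3 FPKM in Control 1 to 3. DSS was above both other groups in every library. The Ptpn6 fold change was -0.64 ± 0.17 (SE) in GsMTx4 against DSS (limma adjusted p = 0.0427) and 0.65 ± 0.17 in DSS against Control (adjusted p = 0.0329). Ptpn1 had a fold change of 0.71 ± 0.15 (SE) in DSS against Control (adjusted p = 0.0146). In DSS against Control, 1 of these 2 passed without DSS 1 or DSS 3 and 0 without any 1 Control library. The Ptpn6 call in GsMTx4 against DSS ended without GsMTx4 2, GsMTx4 3, DSS 1, DSS 3 or any 1 Control library (adjusted p = 0.0598 to 0.139). Socs1, a relative of Socs3, was at 7.36, 4.67 and 9.66 FPKM in GsMTx4 1 to 3, at 7.66, 18.8 and 10.3 FPKM in DSS 1 to 3 and at 11.2, 7.50 and 9.34 FPKM in Control 1 to 3. Its groups overlapped, and its log2 fold change in DSS against Control was 0.28 ± 0.32 (SE; adjusted p = 0.548).

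Of 33 genes known as STAT3 targets, all tested, 16 rose and 0 fell in DSS against Control, and 3 were higher and 9 lower in GsMTx4 than in DSS. When only GsMTx4 and DSS were fitted, 5 were lower. The 3 higher genes, Fga, Fgb and Fgg, reached 1 FPKM in GsMTx4 libraries alone. They so entered the test through the group where they were high. Reg3g, counted among the 16 and the 9, did so through the DSS group. The list was chosen with earlier results of these data known. Of all tested genes, 6.41% passed as higher and 10.7% as lower in DSS against Control. In GsMTx4 against DSS these shares were 6.66% and 5.62%. The list's median log2 fold change was 0.84 in DSS against Control and -0.53 in GsMTx4 against DSS, beside -0.17 and 0.07 over all tested genes. Of the 16, 10 passed with any 1 library left out: Pim3, Cebpb, Hif1a, Il4ra, Lrg1, Saa1, Saa3, Lcn2, Hp and Serpina3n. Without Control 2 the count of rises was 10, and without DSS 1 there was 1 fall. The largest rise was that of Lrg1, a leucine-rich acute-phase glycoprotein, which was at 66.1, 33.1 and 4.32 FPKM in GsMTx4 1 to 3, at 229, 306 and 151 FPKM in DSS 1 to 3 and at 1.40, 1.77 and 1.83 FPKM in Control 1 to 3. Its 3 groups did not overlap, and as for Socs3, GsMTx4 3 lay nearest to Control. The Lrg1 fold change was 6.37 ± 0.76 (SE) in DSS against Control (limma adjusted p = 0.00154) and -3.26 ± 0.76 in GsMTx4 against DSS (adjusted p = 0.0262). The second of these ended without GsMTx4 2 or without DSS 1, DSS 2 or DSS 3 (adjusted p = 0.0508 to 0.0703).

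Other targets that rose with DSS and were lower with GsMTx4 included acute-phase and antimicrobial genes. Saa3, an acute-phase serum amyloid gene, was at 9.17, 4.14 and 6.66 FPKM in GsMTx4 1 to 3, at 17.2, 34.0 and 51.6 FPKM in DSS 1 to 3 and at 1.15, 1.47 and 1.0 FPKM in Control 1 to 3. Serpina3n, a protease inhibitor gene, was at 57.6, 21.5 and 19.6 FPKM in GsMTx4 1 to 3, at 132, 221 and 265 FPKM in DSS 1 to 3 and at 13.7, 21.0 and 27.5 FPKM in Control 1 to 3. In both genes the DSS libraries were above all others, and for Serpina3n the GsMTx4 and Control ranges overlapped. The log2 fold change in GsMTx4 against DSS was -2.13 ± 0.37 (SE) for Saa3 and -2.72 ± 0.43 for Serpina3n (limma adjusted p = 0.00946 and 0.00667), and in DSS against Control it was 3.87 ± 0.37 and 3.24 ± 0.43 (adjusted p = 0.000706 and 0.00241). Cebpb, a transcription factor gene of the acute phase, was at 8.63, 8.70 and 10.1 FPKM in GsMTx4 1 to 3, at 25.0, 36.2 and 39.1 FPKM in DSS 1 to 3 and at 13.5, 9.72 and 12.2 FPKM in Control 1 to 3. For Cebpb the log2 fold change was -1.74 ± 0.19 (SE) in GsMTx4 against DSS and 1.41 ± 0.19 in DSS against Control (adjusted p = 0.00183 and 0.00243). The antimicrobial iron-binding gene Lcn2 had fold changes of -1.95 ± 0.34 and 2.41 ± 0.34 (SE; adjusted p = 0.0102 and 0.00311), and the interleukin 4 receptor gene Il4ra had -1.11 ± 0.15 and 1.14 ± 0.15 (SE; adjusted p = 0.00361 and 0.00211).

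The lectin gene Reg3g, which acts against gut bacteria, was at 0.190, 0.214 and 0.363 FPKM in GsMTx4 1 to 3, at 3.30, 2.19 and 34.8 FPKM in DSS 1 to 3 and at 0.168, 0.0222 and 0.0455 FPKM in Control 1 to 3. DSS was above both other groups in every library, and DSS 3 was far the highest. Reg3g reached 1 FPKM in DSS libraries alone and so entered the test through the group where it was high. The Reg3g fold change was -2.65 ± 0.74 (SE) in GsMTx4 against DSS (limma adjusted p = 0.0477) and 2.87 ± 0.74 in DSS against Control (adjusted p = 0.0295). Without DSS 3 these were -1.56 and 1.78 (adjusted p = 0.00731 and 0.00251). The first call ended without any 1 GsMTx4 or any 1 Control library (adjusted p = 0.0704 to 0.130) and the second without any 1 Control library (0.0734 to 0.0884). Lbp, which encodes a binding protein for bacterial lipopolysaccharide, rose in DSS by 3.31 ± 0.69 (SE; adjusted p = 0.0140) and just missed the threshold when Control 2 was left out. The haptoglobin gene Hp rose by 2.99 ± 0.59 (SE; adjusted p = 0.0109). Steap4, a metalloreductase gene, rose by 2.29 ± 0.49 (SE; adjusted p = 0.0148), which did not pass without Control 1 or 2 (adjusted p = 0.0507 and 0.0506).

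Not all targets were lower with GsMTx4. Saa1 was at 908, 667 and 954 FPKM in GsMTx4 1 to 3, at 913, 928 and 498 FPKM in DSS 1 to 3 and at 170, 239 and 307 FPKM in Control 1 to 3. The GsMTx4 and DSS libraries overlapped, and both lay above Control. The Saa1 fold change was 0.15 ± 0.31 (SE) in GsMTx4 against DSS, with an adjusted p of 0.780, and 1.69 ± 0.31 in DSS against Control, with an adjusted p of 0.00867. Reads of the near-identical Saa1 and Saa2 may have been split between them, so their levels are uncertain. Hif1a, the hypoxia factor gene, and Pim3, a survival kinase gene, rose in DSS by 1.32 ± 0.20 and 1.34 ± 0.26 (SE; adjusted p = 0.00408 and 0.0109). Their fold changes in GsMTx4 against DSS were -0.56 ± 0.20 and -0.53 ± 0.26 (SE; adjusted p = 0.0994 and 0.211). The proliferation and survival genes Myc, Ccnd1, Mcl1, Bcl2l1 and Birc5 did not pass in DSS against Control, with fold changes between -0.85 and 0.41.

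The 3 targets that were higher with GsMTx4 were the fibrinogen chain genes Fga, Fgb and Fgg. Fgb was at 1.96, 1.48 and 4.26 FPKM in GsMTx4 1 to 3 and at 0.0236, 0.0851 and 0.0759 FPKM in DSS 1 to 3, and it was listed at 0 in all Control libraries. Its log2 fold change in GsMTx4 against DSS was 1.67 ± 0.25 (SE, limma adjusted p = 0.00561), and those of Fga and Fgg were 1.77 ± 0.32 and 1.91 ± 0.29 (SE, adjusted p = 0.0109 and 0.00585). These 3 genes reached 1 FPKM in GsMTx4 libraries alone and so entered the test through the group where they were high. Reg3g did so through the DSS group. Hepatocyte markers, a list that holds Fga and Fgb itself, were also higher in this comparison: 8 of 8 passed as higher in GsMTx4 than in DSS, where 6.66% of all tested genes did. Of these, 5 (Apoa1, Serpina1a, Ahsg, Fga and Fgb) reached 1 FPKM in GsMTx4 alone and so entered the test through the group where they were high. The other 3 were Alb, Apoa2 and Ttr, with log2 fold changes of 3.64 ± 0.16, 2.37 ± 0.17 and 1.98 ± 0.33 (SE, limma adjusted p = 4.07e-05, 0.000378 and 0.00851). The list summed to 42.6 to 63.3 FPKM in GsMTx4, 3.0 to 7.20 FPKM in DSS and 20.7 to 26.8 FPKM in Control. Its sum was thus higher in Control than in DSS, while Fga, Fgb and Fgg were listed at 0 in every Control library. In DSS against Control, 2 of the 8, Alb and Ttr, passed as lower, where 10.7% of all tested genes did. None of the 8 was at 0 in every library, and the part of hepatocyte RNA in the fibrinogen levels was not tested. In GsMTx4 against Control, Fgb and Fgg passed; without GsMTx4 3 the count of targets higher was 6, without GsMTx4 2 or DSS 3 it was 1, and without GsMTx4 1, DSS 1, DSS 2 or any 1 Control library it was 0.

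**Figure D4:**
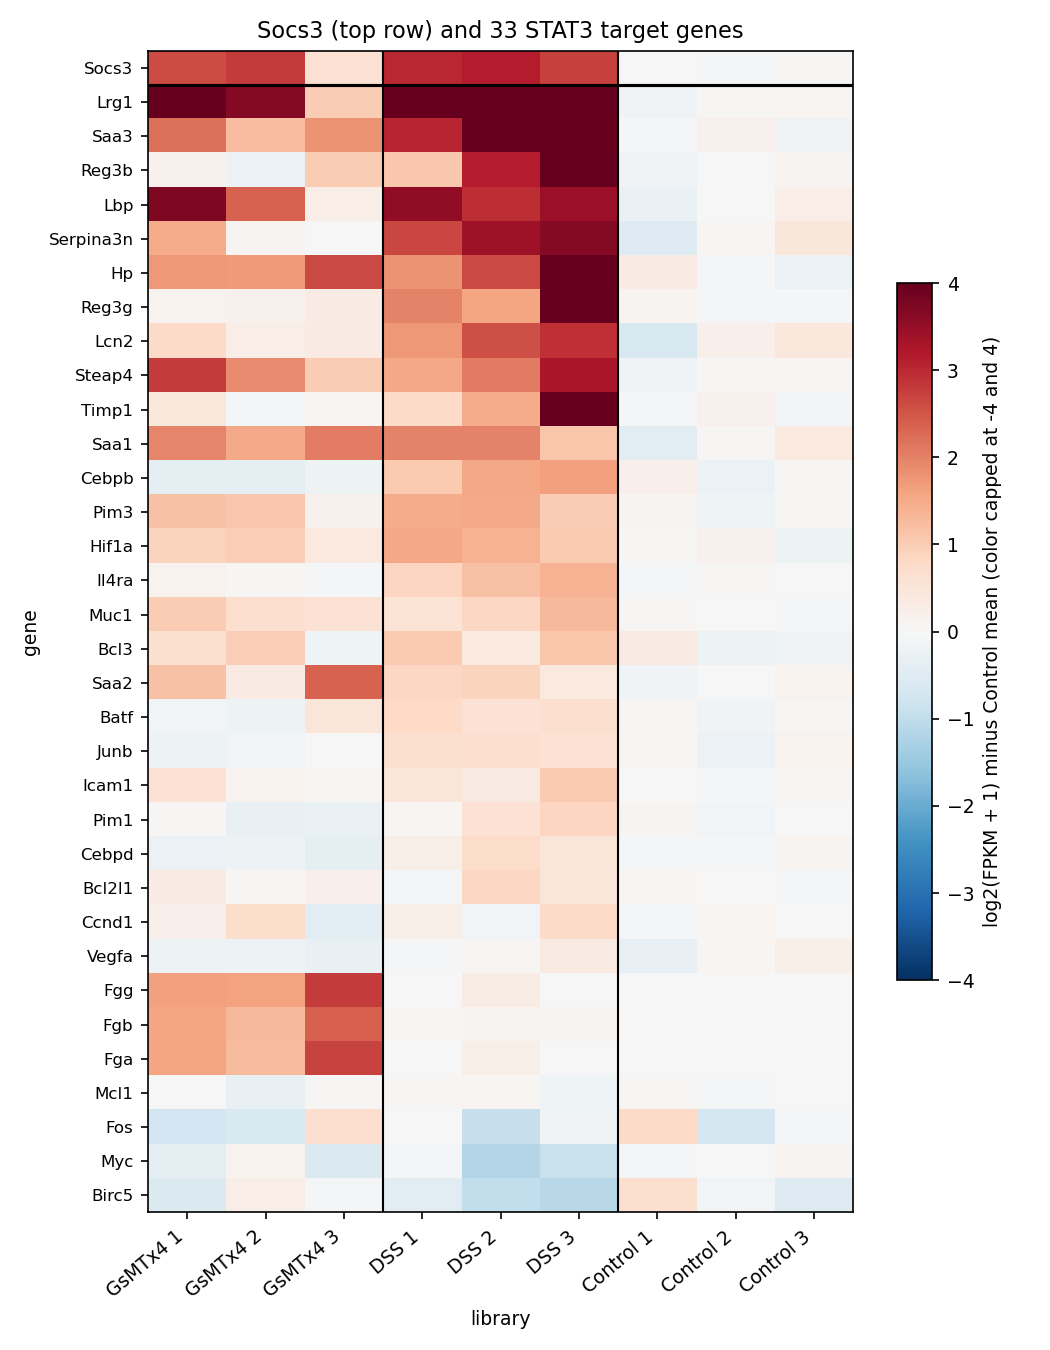
log2(FPKM + 1) minus the Control mean (color, capped at -4 and 4) of Socs3 in the top line and of the 33 STAT3 target genes below it, ordered by their DSS mean, in the 9 libraries from GsMTx4 on the left through DSS to Control on the right. Most genes are red in DSS, Lrg1 and Lbp in GsMTx4 differ between library 3 and the other libraries, and Fga, Fgb and Fgg are red in GsMTx4 alone.

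Of 11 genes that oncostatin M is known to induce in stromal and endothelial cells, all were tested; 5 rose and 0 fell in DSS against Control, with a list median of 1.29. Of these, Pdpn is also the fibroblast marker counted above as higher in DSS. In GsMTx4 against DSS, 3 were lower and 0 higher, with a median of -0.51. Among all tested genes, 6.41% passed as higher and 10.7% as lower in DSS against Control. In GsMTx4 against DSS these shares were 6.66% and 5.62%. Cxcl1, a neutrophil-attracting chemokine gene, was at 1.94, 0.780 and 0.254 FPKM in GsMTx4 1 to 3, at 5.82, 4.35 and 8.67 FPKM in DSS 1 to 3 and at 0.361, 0.123 and 0.185 FPKM in Control 1 to 3. Vcam1, an adhesion molecule gene of activated stroma and endothelium, was at 5.25, 4.28 and 3.55 FPKM in GsMTx4 1 to 3, at 14.2, 14.6 and 16.2 FPKM in DSS 1 to 3 and at 3.40, 6.03 and 5.72 FPKM in Control 1 to 3. For both genes the DSS libraries were above all others and GsMTx4 overlapped Control. Their fold changes in GsMTx4 against DSS were -1.92 ± 0.31 and -1.59 ± 0.20 (SE; limma adjusted p = 0.00759 and 0.00291), and in DSS against Control 2.53 ± 0.31 and 1.43 ± 0.20 (adjusted p = 0.00180 and 0.00280). Cxcl1 and Vcam1 passed in both comparisons with any 1 library left out. The other calls were Il33, an alarmin cytokine gene, in both comparisons, and Ccl7 and Pdpn in DSS against Control. Il33 was at 1.46, 1.65 and 1.45 FPKM in GsMTx4 1 to 3, at 2.72, 6.44 and 17.0 FPKM in DSS 1 to 3 and at 1.26, 0.853 and 0.940 FPKM in Control 1 to 3. Its fold change of -1.65 ± 0.45 (SE) in GsMTx4 against DSS (limma adjusted p = 0.0450) passed in 1 of the 9 fits with 1 library left out, that without DSS 1 (-2.20), and was -1.06 without DSS 3 (adjusted p = 0.0547). In the other fits its adjusted p was 0.0665 to 0.116. In DSS against Control the Il33 fold change was 1.98 ± 0.45 (SE; adjusted p = 0.0192), which was 1.39 without DSS 3 and no longer passed without Control 2 or 3 (adjusted p = 0.0687 and 0.0627). Ccl7 did not pass without Control 2 or 3, nor Pdpn without DSS 2 or any 1 Control library. Without Control 2 or Control 3 the count of rises was 2. The count lower with GsMTx4 was 5 without DSS 1 and 2 without any 1 of the other 8 libraries. The interferon-induced chemokine genes Cxcl9 and Cxcl10 did not pass, with fold changes of 1.01 ± 0.59 and 1.11 ± 0.44 (SE) in GsMTx4 against DSS (adjusted p = 0.286 and 0.127). In DSS against Control their fold changes were -0.88 ± 0.59 and -0.58 ± 0.44 (SE, limma adjusted p = 0.311 and 0.366). Icam1 and Timp1 of this list are also on the list of STAT3 targets. The endothelial markers summed to 11.4 to 18.7 FPKM in GsMTx4, 17.2 to 33.7 FPKM in DSS and 10.9 to 15.4 FPKM in Control. Of these 7 markers, 1 was lower in GsMTx4 than in DSS and 3 were higher in DSS than in Control, and none was at 0 in every library. Emcn, 1 of the 3 that were higher, reached 1 FPKM in DSS libraries alone and so entered the test through the group where it was high. The part of endothelial cells and of the fibroblasts given above in the Vcam1, Pdpn and Il33 levels was not tested.

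Cytokines that reach STAT3 without gp130 were measured beside these genes. Il22, whose product acts on epithelium through STAT3, was at 1.83, 3.63 and 0.120 FPKM in GsMTx4 1 to 3, at 4.66, 6.15 and 7.24 FPKM in DSS 1 to 3, and at 0.205 FPKM in Control 1 and listed at 0 in Control 2 and 3. All DSS libraries were above all GsMTx4 and all Control libraries, and GsMTx4 3 lay within the Control range. The Il22 fold change was 2.70 ± 0.43 (SE) in DSS against Control (limma adjusted p = 0.00486), which passed with any 1 library left out. In GsMTx4 against DSS it was -1.50 ± 0.43 (SE; adjusted p = 0.0515). Csf3, the granulocyte colony-stimulating factor gene, was at 0.202, 1.09 and 1.54 FPKM in DSS 1 to 3 and was listed at 0 in all GsMTx4 and Control libraries; it was under the filter. Of 9 genes tested on this list of 12, 2 rose in DSS against Control, Il22 and the interleukin 10 receptor gene Il10ra, and 2 were lower with GsMTx4, Il10ra and Il21r. With quantile normalization, and likewise with median-of-ratios scaling, 5 rose. Over all tested genes, 6.41% passed as higher in DSS against Control and 5.62% as lower in GsMTx4 against DSS. The list's medians were 0.56 in DSS against Control and -0.69 in GsMTx4 against DSS. Il10ra no longer passed in DSS against Control without GsMTx4 2, DSS 1, DSS 3 or any 1 Control library (adjusted p = 0.0513 to 0.132). The count of 2 lower with GsMTx4 became 1 without GsMTx4 1, GsMTx4 2 or any 1 Control library, and 0 without GsMTx4 3, DSS 1 or DSS 3. Il10 did not pass, with a fold change of 0.09 ± 0.24 (SE) in GsMTx4 against DSS (adjusted p = 0.830).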

How the data were processed

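The authors deposited FPKM values for 35315 genes in the 9 libraries. Per the submitters' processing notes, cutadapt and FastQC were used and GRCm38 was the genome build; aligner and FPKM program: not given in the sources used here. Groups came from the sample titles. Gene symbols and positions came from the GENCODE M21 annotation of GRCm38.

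Values were transformed to log2(FPKM + 1), with a pseudocount of 1. limma 3.58.1 in R 4.3.3 fitted the 14360 genes with at least 1 FPKM in at least 3 of the 9 libraries, with a mean for each group, an empirical Bayes trend and 6 residual degrees of freedom. Tests were two-sided. The fit was tested on simulated data. The 3 genes under the filter had exact two-sided permutation tests. Alternatives were another pseudocount, no filter or a stricter one, other scalings, a fit of the compared groups alone, a replicate block and each library left out. Promoter windows came from RefSeq. The members and gene lists were chosen with earlier results of these data known. All members are named, and of each list the genes that passed, those with the largest fold change first; lists of 10 genes or fewer may be named in full. Whether replicate numbers pair the libraries is not labelled, and the main fit did not pair them.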

Additional observations from a re-analysis of the deposited data

How the results depend on the processing

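For the 10 genes and 3 comparisons, 195 values came from alternatives that used all libraries of the groups compared. Of these, 186 kept their direction and, for genes tested in the main fit, their side of the threshold. Il6, Il11 and Osm had no call to keep, so for them direction was compared, and none passed with no filter. Only calls of Il6ra, Osmr and Socs3 could be lost. The 6 values that lost a call were of Il6ra in GsMTx4 against DSS and Osmr in DSS against Control. Il11ra1 in GsMTx4 against Control turned to 0.044 with median-of-ratios scaling and 0.030 with quantile normalization, and to 0.014, 0.032 and 0.017 without GsMTx4 1, GsMTx4 2 and Control 2. With 1 library left out, Il11ra1 in GsMTx4 against DSS ranged over -0.011 to 0.25 and Stat3 over -0.36 to 0.080, both at their turned sign without GsMTx4 3, and Stat3 was 0.01 without DSS 3. Without DSS 3 and GsMTx4 3 together, a choice made after seeing the data, Stat3 was 0.26, 1 of the genes, Socs3, passed in GsMTx4 against Control and 0 in GsMTx4 against DSS, and over all genes 440 were lower in GsMTx4 than in DSS and 80 higher and 28 lower in GsMTx4 than in Control. In GsMTx4 against Control, Il6 ranged over -0.0018 to 0.070, lowest without GsMTx4 1 or Control 2, and Osm over -0.041 to 0.30, lowest without GsMTx4 3, and -0.041 also without DSS 3 and GsMTx4 3. The cause of these turns was not tested.

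Il6ra, the 1 gene lower in GsMTx4 than in DSS, became 0 with no filter, with a mean of at least 5 FPKM (which leaves it untested), with rescaling to a common sum and in the fit of the 2 groups. The 2 genes higher in DSS than in Control became 1, Socs3, with no filter and with a mean of at least 5 FPKM, which leaves Osmr untested. Leaving out 1 library gave 0 to 1 lower in GsMTx4 than in DSS, 1 to 2 higher in DSS than in Control and 0 to 1 higher in GsMTx4 than in Control.

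Over all genes, GsMTx4 against DSS gave 590 higher and 483 lower with no filter, 495 lower with a mean of at least 5 FPKM, and 327 and 260 in the fit of the 2 groups. DSS against Control gave 579 higher and 992 lower with a mean of at least 5 FPKM, and 949 lower with median-of-ratios scaling. GsMTx4 against Control gave 3 higher with a mean of at least 5 FPKM, and 2, 12, 2, 3 and 3 lower with a pseudocount of 0.1, no filter, a mean of at least 5 FPKM, median-of-ratios scaling and quantile normalization. Leaving out 1 library gave 393 to 1209 higher and 323 to 787 lower in GsMTx4 than in DSS, 382 to 1094 and 581 to 2007 in DSS against Control, and 12 to 70 and 1 to 13 in GsMTx4 against Control.

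For same-numbered libraries the correlation of deviations from the group mean was -0.23 to 0.0998, and 0 of 9 pairs exceeded 0.1. Different-numbered libraries gave -0.19 to 0.31. With 3 libraries a group these values cannot settle whether libraries were paired. With the replicate number as a block, 553 genes were higher and 525 lower in GsMTx4 than in DSS, 713 and 995 in DSS against Control and 19 and 7 in GsMTx4 against Control. Of the 10 genes, 0 were then lower in GsMTx4 than in DSS (Il6ra, adjusted p = 0.0823) and 1 was higher in DSS than in Control, with Osmr at an adjusted p of 0.0654. Il6, Il11 and Osm were not fitted with the block, a mean of at least 5 FPKM, quantile normalization or the compared groups alone. Depth is unknown, so no counting limit can be given for levels under 1 FPKM, and 3 libraries a group limit what could pass.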
